A study of Mus musculus with 6 samples.

Results

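The mitochondrial ribosomal protein genes are the nuclear genes named Mrpl and Mrps, which encode the protein subunits of the large and the small subunit of the mitochondrial ribosome. They were taken from the gene table by name, as every gene whose symbol begins with Mrpl or Mrps and a number, without the pseudogenes. This gave 77 of the 45706 genes of the table, 48 Mrpl and 29 Mrps, and left out 5 pseudogenes, which together held 2 to 14 estimated counts per sample. The RNA came from 3T3-L1 cells, a mouse embryo fibroblast line that is turned into adipocytes by a hormone cocktail, collected on day 7 of differentiation. The control group of 3 samples carried a scrambled shRNA and the RBMS1 knockdown group of 3 samples carried an shRNA against Rbms1, which encodes an RNA-binding protein. Both groups were made by lentiviral transduction and puromycin selection, so each is a stable cell population, and both received IBMX, dexamethasone, insulin and rosiglitazone. The study calls the 3 samples of a group biological replicates, and whether they were transduced separately is not given in the sources used here, so the tests measure the spread between these samples, which may be partly technical.

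The mitochondrial ribosome sits in the mitochondrial matrix and translates the few mRNAs of the mitochondrial genome, all of which encode membrane subunits of the respiratory chain and ATP synthase. Its ribosomal RNAs are transcribed from mitochondrial DNA, whereas its proteins are made in the cytosol from nuclear genes and imported. Some of these proteins have a counterpart in the bacterial ribosome and the others were gained in the mitochondrial lineage. Adipocyte differentiation is known to be accompanied by an increase in mitochondria.

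The promoters are shown first because genes of this kind are known to share short promoter elements, bound by the nuclear respiratory factor NRF1, by ETS-type factors and by YY1. RefSeq windows on GRCm38.p6, from 250 bases before to 50 bases after the start, matched 68 of the 77 genes by symbol. Both strands were searched for an NRF1-type motif (GCGCNTGCG), an ETS-type motif (CCGGAAG), a YY1-type motif (AAGATGGCG) and the TATA box letters (TATAAA). In none of these genes did the letters of 2 different motifs overlap (0 of 68). The NRF1-type motif was held by 18 of 68 genes (26.5%), against 16.6% of the tested genes with a window and 7.12% of all genes with one. The ETS-type motif was held by 25 (36.8%, against 21.6% and 9.93%), the YY1-type motif by 8 (11.8%, against 3.99% and 1.64%) and the TATA box letters by 5 (7.35%, against 8.20% and 15.7%). At least 1 of the first 3 motifs lay in the windows of 42 of 68 genes (61.8%), against 36.7% of the tested genes and 16.6% of all genes. A match of letters is a description of the window and not a bound site. Over the 42 genes with a motif the median log2 fold change (knockdown over control, described below) was -0.04, and over the others with a window it was -0.17. By motif these medians were 0.0025 with and -0.15 without the ETS-type motif, -0.09 and -0.08 for the NRF1-type motif, and -0.09 and -0.07 for the YY1-type motif. Among the controls alone the median deviation of all 77 genes from their control mean ran from -0.11 to 0.05 (log2). The medians by motif were not computed for the other tested genes, and the part of the motifs in them was not tested.

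Of the genes the comparison turns on, Mrpl34 is 1 of the pair that passed the test, Mrps14 had the highest fold change, Mrpl12 is a stalk protein gene with an NRF1-type match, and Mrps11 and Mrpl46 are genes on opposite strands whose RefSeq starts lie on either side of 1 short stretch. Their upstream sequences without annotated exons are given 5′ to 3′ on the strand of the named gene, with motif matches in capitals. The Mrpl34 stretch is chr8:71464676-71464925 (plus strand), that of Mrps14 is chr1:160194965-160195214 (plus strand) and that of Mrpl12 is chr11:120484387-120484612 (plus strand). The stretch between the RefSeq starts of Mrps11 and Mrpl46 is chr7:78783090-78783118, given on the plus strand, on which Mrps11 is read. In GENCODE the span of Mrpl46 reaches beyond it to position 78783531 and overlaps Mrps11.
Mrpl34: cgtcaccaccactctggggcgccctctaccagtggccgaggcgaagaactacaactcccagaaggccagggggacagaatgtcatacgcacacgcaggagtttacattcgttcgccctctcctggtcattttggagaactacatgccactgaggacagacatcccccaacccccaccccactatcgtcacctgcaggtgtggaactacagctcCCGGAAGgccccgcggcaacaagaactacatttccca
Mrps14: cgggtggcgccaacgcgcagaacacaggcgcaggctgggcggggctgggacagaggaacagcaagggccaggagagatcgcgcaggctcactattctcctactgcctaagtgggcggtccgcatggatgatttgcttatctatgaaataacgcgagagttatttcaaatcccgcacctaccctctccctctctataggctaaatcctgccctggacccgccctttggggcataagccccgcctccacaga
Mrpl12: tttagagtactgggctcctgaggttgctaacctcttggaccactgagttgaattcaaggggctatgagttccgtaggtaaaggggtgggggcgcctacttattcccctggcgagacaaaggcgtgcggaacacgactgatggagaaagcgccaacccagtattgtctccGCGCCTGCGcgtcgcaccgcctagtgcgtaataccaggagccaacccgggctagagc
Mrps11 and Mrpl46: ccatgaggcaacgcgggccggcgaggggc
The Mrpl34 stretch holds the ETS-type letters, and the 250 bases before Mrps14 hold none of the 4 motifs. The window of Mrpl47, the other gene that passed the test, has no stretch free of annotated exons, because the 5′ ends of Mrpl47 and its neighbour Ndufb5 overlap on opposite strands.

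Total counts per sample ranged from 3142695 to 11073098, and control replicate 2 stood apart with the lowest total and 43.0% of its counts in genes derived from ribosomal RNA, against 8.12 to 17.8% in the other 5 samples. Values are given as CPM, read counts relative to the sample total scaled with TMM factors, which lay between 0.642 and 1.23. Rbms1, the targeted gene, had 113, 102 and 99.6 CPM in the controls and 49.2, 61.4 and 84.0 CPM in the knockdown. Every knockdown sample lay under every control, with a log2 fold change of -0.69 ± 0.20 (SE), but the gene did not pass the test (adjusted p = 0.185, edgeR quasi-likelihood test with Benjamini-Hochberg adjustment). When knockdown replicate 3 was left out it was at -0.92 and passed at 0.1 (adjusted p = 0.0708, edgeR). The 8 adipocyte markers were detected in all samples and their summed CPM was 20494, 21880 and 23816 in the controls and 19159, 10747 and 12551 in the knockdown. More than any other marker Lpl on chromosome 8 made up this sum, and only Lpl and Cebpa had no overlap between the groups. The 6 markers outside chromosome 8 and the first 50 Mb of chromosome 3, a choice made after seeing the data, summed to 5833, 5719 and 6084 CPM in the controls and 6422, 3271 and 4497 CPM in the knockdown, which overlapped. The summed pre-adipocyte and fibroblast markers were 8133, 7454 and 7018 CPM in the controls and 3732, 7744 and 7122 CPM in the knockdown. All 6 of these markers also had log2 fold changes below 0. Of them Pdgfra (-0.87 ± 0.23) and Dlk1 (-0.84 ± 0.36) had no overlap between the groups (33.3%). Neither was called by edgeR (adjusted p = 0.155 and 0.388), and DESeq2 called Pdgfra (adjusted p = 0.0275). Of the 4 macrophage markers Adgre1 and Ptprc had no count, and Csf1r had 0 to 4 counts. Cd68 had 1.28, 2.48 and 0.688 CPM in the controls and 2.44, 3.27 and 1.76 CPM in the knockdown, with overlapping groups (log2 fold change 0.92 ± 0.59, adjusted p = 0.570, edgeR). In bulk samples fewer cells of a type and less RNA per cell cannot be told apart.

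The mitochondrial ribosomal protein genes were all expressed, and all 77 passed the filter on low counts that left 11440 genes for testing. Together they held 4109 to 24733 counts per sample, or 0.131 to 0.236% of the total, and the median gene had 48 to 271 counts. The lowest share was that of control replicate 2. Without the genes derived from ribosomal RNA the share was 0.222 to 0.262%. Levels were compared between genes as CPM per kb of the principal annotated transcript. In the controls the median gene had 16.6 CPM per kb, with quartiles of 9.71 and 26.5, and the highest gene was 47.5 times the lowest. The large subunit genes had a median of 17.0 and the small subunit genes of 14.0 CPM per kb.

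The highest gene was Mrps6, the counterpart of a bacterial small subunit protein, with 119 ± 10.6 CPM per kb (SD, n = 3). Its level is uncertain, because it shares exon bases on the same strand with Slc5a3 and all 6 of its estimated counts were not whole numbers. It was followed by Mrps21 with 64.6 ± 16.5, Mrps18a with 56.9 ± 4.52, Mrpl33 with 55.4 ± 9.42 and Mrpl34 with 53.4 ± 8.38 CPM per kb, and these 4 did not differ beyond their spread. The lowest were Mrpl48 with 2.5 ± 0.37, Mrps25 with 3.01 ± 0.47, Mrpl47 with 3.49 ± 0.13, Mrpl19 with 3.69 ± 0.71 and Mrps14 with 4.56 ± 1.11 CPM per kb. In this order of the lowest 5, the SD ranges of every pair of neighbours overlapped. The order depends on the transcript length used: with the union of all exons, a choice made after seeing the data, 3 of the highest 5 were again among the highest 5 and 3 of the lowest 5 among the lowest 5, and Mrpl33 went from 55.4 to 3.62 per kb.

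**Figure D1:**
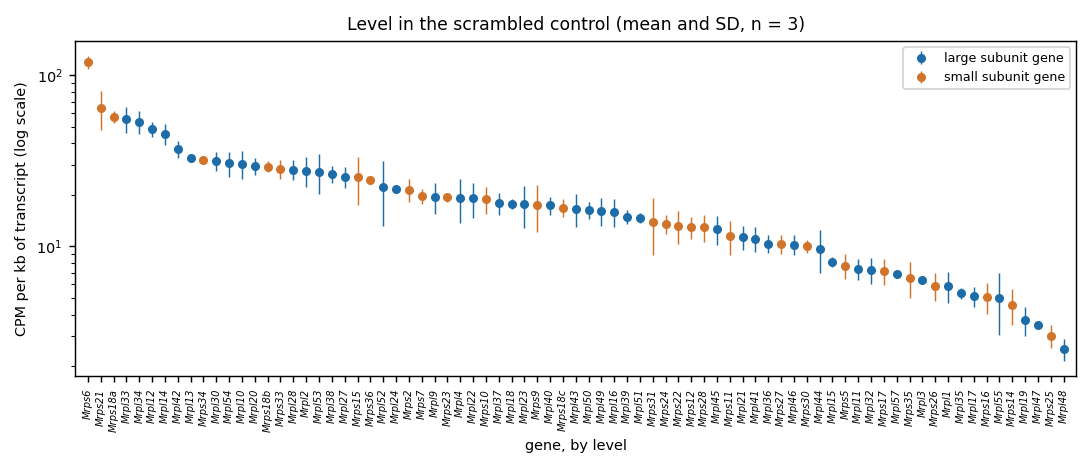
Level of each of the 77 genes in the scrambled control as CPM per kb of transcript on a log axis, ordered from high to low, with points for the mean and bars for the SD over 3 samples and colours for the subunit. Mrps6 stands above the rest at 119 CPM per kb, and genes of both subunits are spread over the whole range down to 2.5.

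Between knockdown and control, 2 genes of the mitochondrial ribosome passed the test, Mrpl47 and Mrpl34, both of the large subunit and both lower in the knockdown, to 0.462 and 0.534 of the control level. A gene was called at an adjusted p of 0.1 or less (edgeR), the cut-off the study used for its list of changed genes, while its methods set 0.05. The 2 called genes of 77 stand beside 1.22% called among all tested genes (140 of 11440), and 0.909% called as lower and 0.315% as higher. DESeq2 called the same 2 genes, beside 3.22% of the genes it tested. At an adjusted p under 0.05 none of the 77 was called by edgeR (0.463% of all tested genes) and 1 by DESeq2, Mrpl34 (2.18%). At an unadjusted p under 0.05 there were 7, against 12.4% of all tested genes. None of the 29 small subunit genes was called, and all 7 with an unadjusted p under 0.05 belonged to the large subunit.

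Mrpl47 encodes the mitochondrial counterpart of the bacterial protein uL29, which lies near the exit of the peptide tunnel. It had 11.5, 11.4 and 12.2 CPM in the controls and 5.89, 5.61 and 4.77 CPM in the knockdown (72, 23 and 71 against 41, 48 and 65 counts). All 3 knockdown samples lay below all 3 controls, and the controls were close to each other. Its log2 fold change was -1.12 ± 0.24 (SE), with a 95% interval from -1.66 to -0.58 and an adjusted p of 0.0954 (edgeR with Benjamini-Hochberg adjustment). DESeq2 gave an adjusted p of 0.0539. The gene lies on GRCm38 at chr3:32725397-32737605 on the minus strand with 7 exons, and it shares exon bases on the opposite strand with Actl6a and Ndufb5, so its count rests on the strand being read correctly.

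Mrpl34 encodes the counterpart of the small bacterial large subunit protein bL34. It had 26.6, 34.7 and 36.0 CPM in the controls and 16.8, 16.6 and 18.4 CPM in the knockdown. The knockdown samples again lay below every control, and here control replicate 1 was the lowest of its group. Its log2 fold change was -0.90 ± 0.19 (SE), with a 95% interval from -1.32 to -0.49 and an adjusted p of 0.0842 by edgeR and 0.0229 by DESeq2. The gene lies at chr8:71464959-71465747 on the plus strand with 2 exons, and no other annotated gene shares its exons.

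Both calls were close to the threshold. Neither gene was called when control replicate 1, 2 or 3 or knockdown replicate 2 or 3 was left out (adjusted p from 0.183 to 0.315 for Mrpl47 and from 0.119 to 0.308 for Mrpl34, edgeR), although the log2 fold changes stayed between -1.17 and -1.02 and between -1.03 and -0.82 over all 6 such fits. Without knockdown replicate 1, both were called, together with Mrpl57 and Mrpl14, in a fit that called 5.94% of all tested genes (696).

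**Figure D2:**
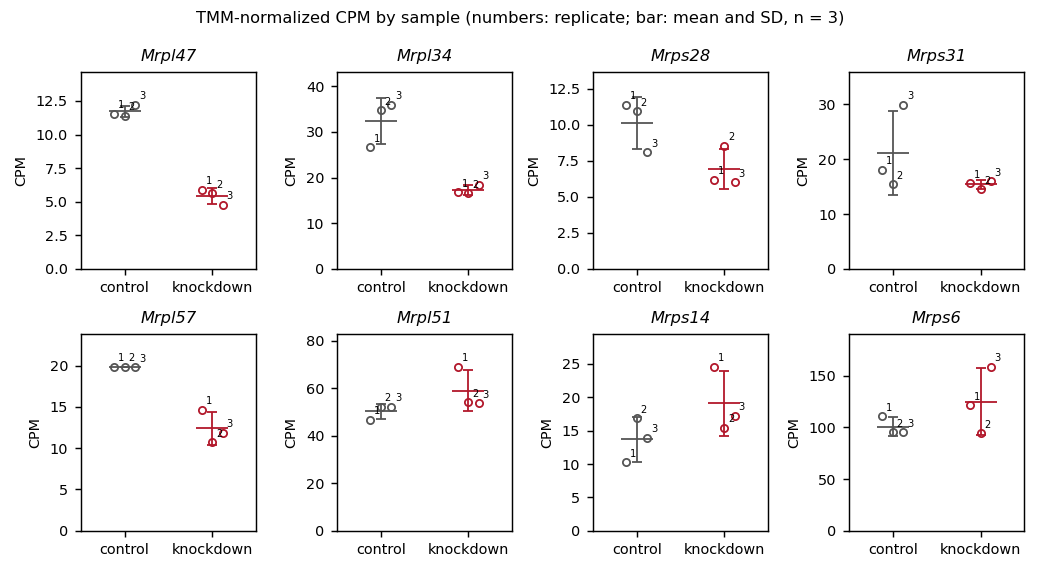
TMM-normalized CPM of 8 mitochondrial ribosomal protein genes in each sample, with points for the replicates (numbered), a horizontal bar for the mean and error bars for the SD, n = 3 per group. Mrpl47, Mrpl34 and Mrpl57 are lower in all knockdown samples than in any control, Mrpl51 is higher in all of them, and the groups of the other 4 overlap.

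Both called genes lie in stretches of the genome in which most other genes were lower in the knockdown too. Of the 622 other tested genes of chromosome 8, 560 had a log2 fold change below 0, with a median of -0.38. Of the 89 others in the first 50 Mb of chromosome 3, 80 were below 0, with a median of -0.64. Over the 10652 other tested genes elsewhere the median was 0.03. These 2 regions were chosen with earlier results of these data known. The other genes of chromosome 8 had median deviations from the control mean of -0.35, -0.39 and -0.35 (log2) in the 3 knockdown samples, against -0.03 to 0.04 in the controls. Those of the chromosome 3 stretch had -0.56, -0.53 and -0.65, against -0.08 to 0.05.

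The immediate neighbours showed the same. All 6 other tested genes within 1 Mb of Mrpl47 were below 0, with a median of -0.60 and a range from -0.91 to -0.26. Within 1 Mb of Mrpl34, 50 of 54 were below 0, with a median of -0.46. When each sample's median deviation per chromosome was removed (chromosome 3 parted at 50 Mb), the log2 fold change was -0.50 for Mrpl47 (adjusted p = 0.527, edgeR) and -0.51 for Mrpl34 (adjusted p = 0.370, edgeR), and no mitochondrial ribosomal protein gene was called. The part of the regional values in the level of either gene was not tested beyond this.

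Each of the 2 regions holds 1 further gene of the mitochondrial ribosome, both of the small subunit. Mrps28 (chr3:8802146-8923918), the counterpart of bacterial bS1, had 11.4, 10.9 and 8.09 CPM in the controls and 6.18, 8.53 and 6.02 CPM in the knockdown. The groups overlapped, and its log2 fold change of -0.55 ± 0.27 did not pass the test (adjusted p = 0.460, edgeR). Mrps31 (chr8:22411361-22429665), which has no bacterial counterpart, had 18.1, 15.4 and 29.9 CPM in the controls and 15.7, 14.5 and 16.0 CPM in the knockdown. Control replicate 3 alone lay clearly above the rest, and the log2 fold change was -0.47 ± 0.26 (adjusted p = 0.498, edgeR). Without control replicate 3 it was -0.13. With the chromosome medians removed, the values of Mrps28 and Mrps31 over all 6 samples were 0.06 and -0.08. Within 1 Mb, 3 of 4 neighbours of Mrps28 and 17 of 19 of Mrps31 were below 0.

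Among the 73 genes elsewhere in the genome none was called by edgeR or DESeq2 (0.958% of the other tested genes there by edgeR), 5 had an unadjusted edgeR p under 0.05 (10.9% of the others), and the median log2 fold change was -0.07. The 5 genes of chromosome 1 all lay above 0, from 0.05 for Mrps9 to 0.49 for Mrps14, with a median of 0.26. The other 670 tested genes of that chromosome had a median of 0.25, with 21.8% below 0. Over all 77 genes the fold change of a gene and the median of the other tested genes of its chromosome had a Spearman correlation of 0.47, and over the 73 genes elsewhere of 0.38, as a description across genes that share the same 6 libraries.

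**Figure D3:**
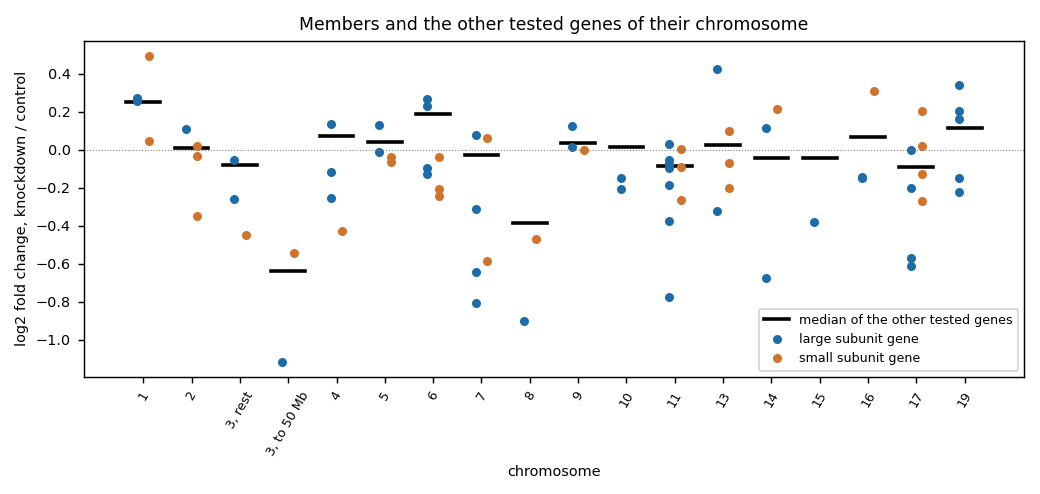
Log2 fold change (knockdown over control) of each mitochondrial ribosomal protein gene by chromosome, with blue points for the large and orange points for the small subunit and a black bar for the median of the other tested genes there. Chromosome 8 and the first 50 Mb of chromosome 3 have the lowest bars, at -0.38 and -0.64, and chromosome 1 the highest, at 0.25.

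Over all 77 genes the log2 fold changes ran from -1.12 to 0.49, with a median of -0.09 and quartiles of -0.27 and 0.08. Of these, 50 were below 0 and 27 above (64.9% below), against 49.6% below and a median of 0.0044 over all tested genes. The median was -0.11 for the 48 large subunit genes, of which 31 were below 0, and -0.06 for the 29 small subunit genes, of which 19 were below 0. These medians rested on single samples. The large subunit median ranged from -0.18 without knockdown replicate 1 to -0.017 without knockdown replicate 2, where the small subunit median was lower, at -0.035. The small subunit median ranged from -0.14 without control replicate 1 to -0.0014 without control replicate 2. Placed by structure, with Mrps30 and Mrps18a in the large subunit and Mrps36, now known as a component of the oxoglutarate dehydrogenase complex, left out, the medians were -0.12 and -0.04. The 46 genes with a bacterial counterpart had a median of -0.07, and the 30 counted as mitochondrion-specific had -0.13.

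The shift of the median was no larger than the spread between samples. The median deviation of the 77 genes from their control mean was -0.11, 0.05 and 0.05 (log2) in the controls and 0.04, -0.18 and -0.13 in the knockdown. Knockdown replicate 1 thus lay among the controls, and control replicate 1 close to the other knockdown samples. Summed over the 77 genes, the level was 1861, 2039 and 2019 CPM in the controls and 2097, 1700 and 1816 CPM in the knockdown (1973 ± 97.5 against 1871 ± 204, SD, n = 3 each). The groups overlapped, and knockdown replicate 1 was the highest of all samples. Knockdown replicates 2 and 3, the lowest, also had the lowest sums of adipocyte markers, and the part of differentiation in these values was not tested. The ratio of the large to the small subunit sum was 1.58, 1.43 and 1.55 in the controls and 1.58, 1.45 and 1.40 in the knockdown.

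The median also moved with the transcript properties used in the fit. The genes have short transcripts, with a median of 1288 bases against 3023 over all tested genes, and a GC content of 50.7% against 50.1%. After loess curves against GC content and transcript length had been subtracted in each sample, the median log2 fold change was 0.014. Then 37 of the 77 genes were below 0, in place of 50. The precision was close to that of other genes, with a median SE of 0.21 against 0.23. For 65 of the 77 genes the 95% interval lay within a 2-fold change in either direction, and for 12 it reached beyond.

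**Figure D4:**
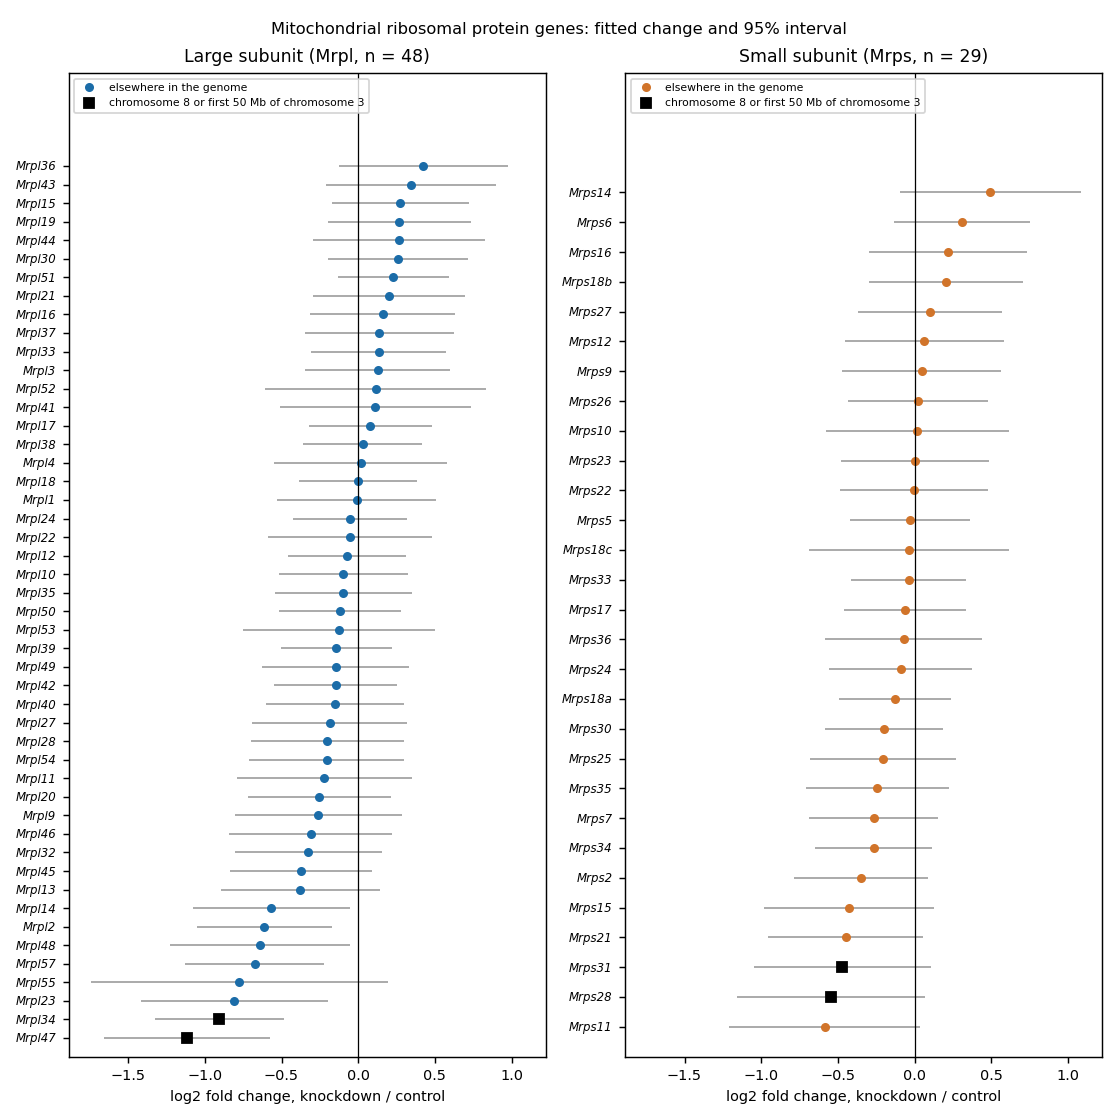
Fitted log2 fold change (knockdown over control) of the 48 large and 29 small subunit genes, with bars for the 95% interval and black squares for the 4 genes on chromosome 8 or in the first 50 Mb of chromosome 3. The squares of Mrpl47 and Mrpl34 lie lowest, and the intervals of 7 genes exclude 0.

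In 9 of the 77 genes the CPM of the groups did not overlap, 8 lower and 1 higher in the knockdown, against 18.5% of all tested genes (9.55% lower and 8.96% higher). The lower ones were Mrpl47, Mrpl34, Mrpl23, Mrpl57, Mrpl48, Mrpl2, Mrpl46 and Mrps34, of which Mrps34 alone is of the small subunit. The higher one was Mrpl51, with 46.6, 52.1 and 52.1 CPM in the controls and 69.0, 54.0 and 53.7 CPM in the knockdown. Its log2 fold change of 0.23 ± 0.16 did not pass the test (adjusted p = 0.614, edgeR), and without knockdown replicate 1 it was 0.11.

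Apart from the 2 called genes, no gene at the lower end passed the test with all 6 samples. Mrpl23, the counterpart of uL23 at the exit of the peptide tunnel, had 8.66, 15.4 and 12.6 CPM in the controls and 7.19, 6.66 and 6.75 CPM in the knockdown. The knockdown samples were close together, and the controls spread over a wider range. Its log2 fold change was -0.81 ± 0.27 (adjusted p = 0.255, edgeR), and its neighbours within 1 Mb had a median of -0.04. Mrpl57, a mitochondrion-specific protein gene, had 19.9, 19.9 and 19.8 CPM in the controls and 14.7, 10.8 and 11.9 CPM in the knockdown. The 3 controls were nearly equal, and the log2 fold change was -0.67 ± 0.20 (adjusted p = 0.200, edgeR), with neighbours at a median of -0.03. Among the fits run it was called only without knockdown replicate 1, at -0.80 (adjusted p = 0.0907, edgeR), where 696 genes in all were called.

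Mrpl48 had 9.30, 12.4 and 10.5 CPM in the controls and 7.48, 7.60 and 5.43 CPM in the knockdown, a log2 fold change of -0.64 ± 0.26 (adjusted p = 0.356, edgeR). All 6 of its estimated counts were not whole, and its pseudogene Mrpl48-ps held 2.27 to 11.9 estimated counts per sample, so reads could have been divided between gene and pseudogene. Mrpl2, the counterpart of uL2 beside the peptidyl transferase centre, had 30.6, 32.8 and 22.2 CPM in the controls and 18.1, 18.9 and 18.7 CPM in the knockdown (-0.61 ± 0.20, adjusted p = 0.231, edgeR). Its knockdown samples were close together under all controls. Mrpl14, the counterpart of uL14 on the face that meets the small subunit, had a log2 fold change of -0.57 ± 0.23 (adjusted p = 0.349, edgeR) with overlapping groups. Mrpl55 was at -0.78 ± 0.43 with 2.30 to 6.09 CPM over the 6 samples, and its interval was wide, from -1.74 to 0.19. Without control replicate 1 it was -0.46.

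Mrps11 and Mrpl46, the pair on opposite strands whose upstream stretch is printed above, had log2 fold changes of -0.59 ± 0.28 and -0.31 ± 0.24. Mrps11, the lowest small subunit gene and the counterpart of uS11, had 9.46, 14.9 and 12.04 CPM in the controls and 7.62, 6.31 and 9.91 CPM in the knockdown. Mrpl46 had 10.7, 13.4 and 10.7 CPM in the controls and 9.92, 10.2 and 7.78 CPM in the knockdown. In both genes control replicate 2 was the highest sample, and neither passed the test (adjusted p = 0.430 and 0.650, edgeR). They share exon bases on opposite strands, so both counts rest on the strand being read correctly. Mrps21 was at -0.45 ± 0.22 and Mrps15 at -0.43 ± 0.25, also without passing it. Without control replicate 2 these were -0.25 and -0.16. Mrpl46 was at -0.19 without knockdown replicate 3.

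At the upper end no gene was called by edgeR or DESeq2. Mrps14, the counterpart of uS14, had 10.3, 16.9 and 13.9 CPM in the controls and 24.6, 15.4 and 17.3 CPM in the knockdown. The groups overlapped, since control replicate 2 lay above knockdown replicate 2, and the log2 fold change was 0.49 ± 0.26 (adjusted p = 0.488, edgeR). With the chromosome medians removed it was 0.25. Mrpl36, the counterpart of the bacterial protein bL36, was at 0.43 ± 0.24, Mrpl43 at 0.34 ± 0.25, Mrpl15 at 0.28 ± 0.20, Mrpl19 at 0.27 ± 0.21 and Mrpl44 at 0.26 ± 0.25. In the small subunit Mrps6 was at 0.31 ± 0.20, Mrps16 at 0.22 ± 0.23, Mrps18b at 0.20 ± 0.22 and Mrps27 at 0.10 ± 0.21. Mrps6 had 111, 95.3 and 95.5 CPM in the controls and 121, 94.1 and 159 CPM in the knockdown. Several of these values rested on single samples. Without knockdown replicate 1 the log2 fold change was 0.28 for Mrps14, 0.12 for Mrpl43, 0.06 for Mrpl15, 0.05 for Mrps18b and -0.05 for Mrps27. Without control replicate 2 it was 0.17 for Mrpl19, 0.09 for Mrpl44 and 0.07 for Mrps16, and without knockdown replicate 3 it was 0.10 for Mrps6.

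The genes of known place or function elsewhere in the ribosome had intervals that included 0. The stalk proteins recruit the translation factors, and their genes Mrpl10, Mrpl11 and Mrpl12 had log2 fold changes of -0.10 ± 0.19, -0.22 ± 0.25 and -0.07 ± 0.17. Mrpl12 had 56.4, 67.5 and 67.8 CPM in the controls and 69.9, 50.03 and 62.0 CPM in the knockdown, and the groups overlapped. Mrpl45, whose protein binds the inner membrane, was at -0.37 ± 0.21, with an interval from -0.84 to 0.09, and at -0.20 without control replicate 3. Mrps12, a protein of the decoding site, was at 0.06 ± 0.23. Mrps18c, the counterpart of bacterial S18, was at -0.04 ± 0.29, and its paralogs Mrps18a and Mrps18b, which were counted as mitochondrion-specific, were at -0.13 ± 0.16 and 0.20 ± 0.22. None of these passed the test (edgeR). With 1 sample left out, Mrpl10 lay between -0.24 and 0.02, Mrpl11 between -0.51 and -0.04, and Mrpl12 between -0.18 and 0.06. In the same fits Mrps12 lay between -0.04 and 0.18 and Mrps18c between -0.23 and 0.22. Mrps18a lay between -0.24 and -0.04 and Mrps18b between 0.05 and 0.42.

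The other genes of mitochondrial translation, from lists written for these cells, were described in the same fit. The 5 mitochondrial ribosome proteins with other names (Dap3, Ptcd3, Chchd1, Aurkaip1 and Gadd45gip1) had no called member, and their median log2 fold change was 0.03. Gadd45gip1, which lies on chromosome 8, had 19.9, 19.9 and 15.8 CPM in the controls and 11.5, 11.6 and 13.8 CPM in the knockdown (-0.59 ± 0.21, adjusted p = 0.277, edgeR). Its groups did not overlap, as in Mrpl34 of the same chromosome.

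Of the 25 tested genes for ribosome assembly and rRNA modification none was called by edgeR or DESeq2 and 14 were below 0 (median -0.01). Of the 16 translation factor rows none was called and 11 were below 0 (median -0.17), and they included Gfm1, the elongation factor for translocation, at -0.42 ± 0.17 (adjusted p = 0.356, edgeR). Of the 17 mitochondrial aminoacyl-tRNA synthetases none was called and 9 were below 0 (median -0.05). One of them, Lars2, had a far wider spread than the rest, from 164 CPM in knockdown replicate 3 to 28844 CPM in control replicate 2, so its value was not read as a level of its mRNA.

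Of the 2 rRNAs and 13 mRNAs of the mitochondrial genome, 1 passed the test by edgeR, mt-Co2. The rRNAs mt-Rnr1 and mt-Rnr2 had 18406, 142530 and 33943 and 4294, 75360 and 13680 CPM in the controls, with control replicate 2 far above the rest. In the knockdown they had 9878, 15690 and 7272 and 3233, 5538 and 2327 CPM. Their log2 fold changes were -2.57 ± 0.95 and -3.07 ± 0.99 (adjusted p = 0.305 and 0.231, edgeR). Without control replicate 2 they were -1.26 and -1.28. The libraries had been depleted of ribosomal RNA, and the part of the depletion in these values was not tested.

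The 13 mitochondrially encoded subunits, the products of this ribosome, all had log2 fold changes below 0, with a median of -0.68. The groups did not overlap in 9 of them (69.2%, against 18.5% of all tested genes), and overlapped in mt-Nd2, mt-Co3, mt-Nd3 and mt-Nd4l. The direction of mt-Nd3 is uncertain, since it had 0 counts in control replicate 2 and knockdown replicate 1. Its interval ran from -4.82 to 1.21. Only mt-Co2 was called by edgeR (-2.06 ± 0.45, adjusted p = 0.0987), with 1039, 1948 and 434 CPM in the controls and 330, 268 and 222 CPM in the knockdown. Without control replicate 2 its log2 fold change was -1.43 (adjusted p = 0.302, edgeR), and limma-voom called none of the 13 subunits. DESeq2 called 7 of them, beside 3.22% of all genes it tested. The summed CPM of the 13 subunits was 54359, 60440 and 51002 in the controls and 32880, 41301 and 36050 in the knockdown, so the groups did not overlap. More than any other subunit mt-Co1 made up this sum. The sums of the 77 mitochondrial ribosomal protein genes in the same samples did. Ppargc1a, a coactivator of mitochondrial genes, had 17.3, 22.8 and 13.2 CPM in the controls and 9.34, 9.23 and 6.31 CPM in the knockdown (-1.09 ± 0.27), and was called by DESeq2 (adjusted p = 0.0592) but not by edgeR (adjusted p = 0.140).

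**Figure D5:**
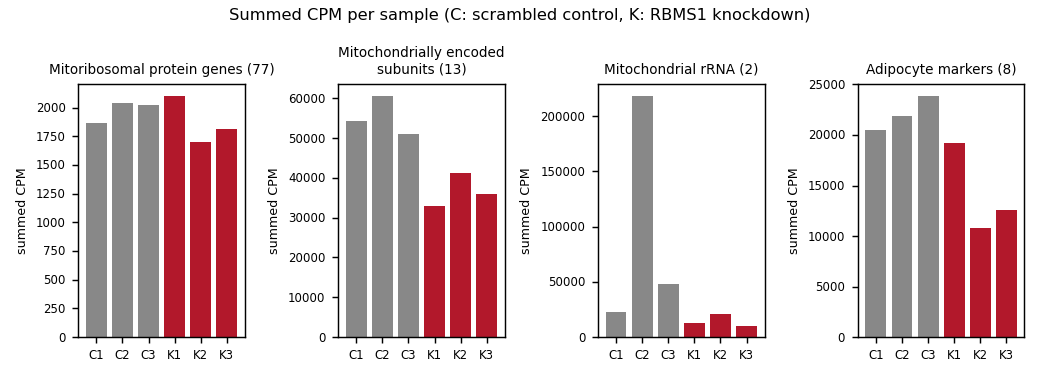
Summed CPM per sample of the 77 mitochondrial ribosomal protein genes, the 13 mitochondrially encoded subunits, the 2 mitochondrial rRNAs and the 8 adipocyte markers, with grey bars for control replicates 1 to 3 (C) and red bars for knockdown replicates 1 to 3 (K). The first sum overlaps between the groups and the other 3 do not, the third being far higher in control replicate 2 than in any other sample and Lpl of chromosome 8 being the largest part of the fourth.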

How the data were processed

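RNA of 3 scrambled control and 3 RBMS1 knockdown cultures was sequenced by the authors as ribosomal RNA-depleted stranded libraries. Per the labels and the study's methods, reads were trimmed with Trim Galore 0.6.7 and aligned to GRCm38 with STAR 2.7.10a, and the deposited values are estimated counts per gene from Salmon 1.9.0, without normalization. The annotation release and the strand setting are not given in the sources used here.

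After rounding, differential expression was computed with edgeR 4.0.16 under R 4.3.3 (filterByExpr, TMM, estimateDisp, glmQLFit with its current estimates, glmQLFTest) on condition alone, with Benjamini-Hochberg adjustment over 11440 genes, called at an adjusted p of 0.1 or less. SE and 95% intervals come from this fit. Checks used DESeq2 1.42.0, limma-voom 3.58.1 and other scalings, filters and corrections. The script was tested on simulated data. A permutation test of 3 against 3 cannot give a p below 0.1 and was not used. Genes were placed with GENCODE M21 (GRCm38), which held all 77 under the same symbol, and 32 of them share exon bases with another gene. In 11 genes an estimated count lay more than 0.01 off a whole number. The NRF1-type motif was shortened by 1 base after a first search. The members, lists and motifs were chosen with earlier results of these data known.

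Genes were named by rule: called members, members without overlap, the 5 highest and lowest per subunit by fold change, the 5 highest and lowest by level per kb, members of chromosome 8 and of the first 50 Mb of chromosome 3, members of known role, and called genes of the companion lists. The companion genes that were not called, the adipocyte and pre-adipocyte markers named singly, and Ppargc1a and Lars2, were chosen after their values were seen. Replicate numbers were shared by the groups, but deviations of same-numbered samples had correlations of -0.14, 0.08 and -0.03, so samples were not treated as pairs.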

Additional observations from a re-analysis of the deposited data

How the results depend on the processing

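The 77 genes were refitted under 13 other settings and with each sample left out. The pair of calls, Mrpl47 and Mrpl34, was kept by DESeq2, which called 1 at an adjusted p under 0.05, by RLE size factors, by library sizes without ribosomal RNA genes, without a filter and on unrounded counts. Limma-voom (Mrpl47), a minimum of 1 CPM in 3 samples (Mrpl34), removal of the GC and length trend (Mrpl47) and edgeR's earlier quasi-likelihood estimates, added after seeing the data (Mrpl34), each kept 1. Library sizes alone and removal of chromosome medians kept 0. Over all tested genes the 140 calls became 431 with DESeq2, 268 without a filter and 71 with chromosome medians removed.

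With library sizes alone the median of all tested genes was 0.37, that of the 77 genes 0.30 (0.27 for the large and 0.34 for the small subunit), 13 of the 77 were below 0, and Rbms1 was at -0.31. Relative to the median of all genes the 77 genes were at -0.07, with 50 below it. With the GC and length trend removed the median of the 77 was 0.014, and 37 of them were below 0.

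With the replicate number as a block, 0 of the 77 and 39 of all genes were called, and together with the GC and length trend removed 0 and 44, with a median of 0.016 over the 77. The numbers do not pair the samples. Leaving out each sample gave 0 to 4 calls among the 77, 12 to 696 among all genes, and an Rbms1 log2 fold change from -0.92 to -0.52, called only without knockdown replicate 3. The highest counts came without knockdown replicate 1 and the lowest over all genes without control replicate 2, and the median of the 77 lay between -0.16 and -0.02. No called value turned its direction under any setting run. At 48 to 271 counts for the median gene, the median SE was 0.21 on the log2 scale, which limits what can be seen gene by gene. Causes of these differences were not tested.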
